A study of Bos taurus with 6 samples.

Results

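The 10 genes described here switch Ras proteins on or off, and they were measured in cultured rumen epithelial primary cells (REPC) with and without butyrate. They were picked by gene name out of 32183 listed genes, and the choice was made with the butyrate and control values of these same cultures in view, so their values are given as a description, with no p-value, and nothing is read from whether they pass a threshold. The set of 10 held 3 RASGRP exchange factors (RASGRP1, RASGRP2 and RASGRP3), the exchange factor SOS1, and 6 Ras GTPase activators, or RasGAPs (RASA1, RASA3, NF1, RASAL1, RASAL2 and RASAL3). The cells had been grown from the rumen lining of 1 Holstein bull calf that was 2 weeks old and had been fed milk replacer only. Total RNA was sequenced from 3 cultures taken 24 h after the addition of 5 mM butyrate and from 3 control cultures without it. Butyrate is a short-chain fatty acid made by rumen microbes and an inhibitor of histone deacetylases. Since all 6 cultures came from 1 animal, the spread between them, and every p-value below, measures cultures and not animals.

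Ras proteins are small GTPases that signal while they hold GTP and are silent while they hold GDP. Exchange factors release the GDP so that GTP can bind, and RasGAPs speed up the hydrolysis of the bound GTP. The RASGRP proteins carry domains that respond to diacylglycerol or calcium and are known mostly from blood cells, RASGRP1 from T cells, RASGRP2 from platelets, where it acts on the relative Rap1, and RASGRP3 from B cells. SOS1 is brought to the membrane by the adaptor GRB2 once a growth factor receptor is active. RASA1 (p120 RasGAP) binds activated receptors through its SH2 domains, RASA3 acts on both Ras and Rap1, RASAL1 responds to calcium, RASAL2 and RASAL3 are further RasGAPs related to each other, and NF1 encodes neurofibromin, the protein lost in neurofibromatosis.

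The values are FPKM, fragments scaled to transcript length and to the number of mapped fragments, so they can be set side by side between genes. A control culture had 16051 to 16193 genes above 0 and a butyrate culture 17306 to 17510, and depth differed little, from 0.928 to 0.988 times that of control culture 1. Across genes, log2(FPKM + 1) correlated at 0.9948 to 0.9955 between cultures of a group and at 0.9626 to 0.9663 between groups. Some epithelial and some fibroblast markers were abundant. The 17 stratified epithelium markers summed to 6299 to 6576 FPKM in control and the 12 fibroblast markers to 4373 to 4529. Both sums were higher after butyrate, at 9156 to 9451 and 6392 to 6736. Most of the control sums was KRT17 and KRT8 (means of 3859 and 1380 FPKM), and VIM and COL1A1 (2464 and 1149 FPKM). The fibroblast markers PDGFRA, PDGFRB, LUM, FAP and TWIST1 had control means of at most 0.306 FPKM. The epithelial markers EPCAM and GRHL2 had 0.54 and 0 FPKM, and the other markers lay between. In such bulk RNA, fewer cells of a type and less RNA per cell cannot be told apart. Fold changes are differences of log2(FPKM + 0.1) fitted with limma to 15813 genes whose mean FPKM reached 0.1. On this scale the change of a low gene comes out too small.

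RASGRP2 stood at the floor of the control cultures and was among the better expressed members after butyrate. In the control cultures it measured 0.2256, 0 and 0.1862 FPKM (replicates 1, 2 and 3), and in the butyrate cultures 7.401, 6.772 and 6.578 FPKM. The groups did not overlap, and the lowest butyrate culture was far above the highest control culture. The mean moved from 0.137 ± 0.120 to 6.92 ± 0.430 (SD, n = 3 each), a fitted difference of 5.06 with a standard error of 0.42 on the log2 scale. The size of that difference is set largely by the pseudocount, since it was 6.48 with a pseudocount of 0.01 and 2.80 with a pseudocount of 1. The deposited confidence intervals show why the control level is poorly known. They reached 0 in every control culture and are as wide as about 1.07 and 0.688 fragments would give in replicates 1 and 3, against 85.4 to 98.4 fragments after butyrate. The ratio of the group means was 50.4. An approximate exact binomial 95% interval, from 2 implied fragments in control and 278 after butyrate, ran from 12.1 to 367. It leaves out the spread between cultures. It is also rough, since an implied fragment did not stand for the same FPKM in both groups. In control replicate 1, 0.2256 FPKM went with 1.07 implied fragments, and in butyrate replicate 1, 7.401 FPKM went with 94.0.

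RASGRP1 was already expressed in control cultures and was higher after butyrate. It measured 1.765, 0.7733 and 0.899 FPKM in control and 2.205, 2.907 and 2.48 FPKM after butyrate. All butyrate values lay above all control values, but control replicate 1 was nearer to the lowest butyrate culture than to the other control cultures. The deposited interval of control replicate 1 (1.344 to 2.186 FPKM) overlapped that of butyrate replicate 1 (1.753 to 2.658 FPKM). The mean was 1.15 ± 0.540 in control and 2.53 ± 0.353 after butyrate, 2.21-fold higher, with a fitted log2 difference of 1.15 and a standard error of 0.30. That difference was 1.49 without control replicate 1 and 0.94 without control replicate 2. RASGRP3 was listed at 0 FPKM in all 6 cultures and was the only member below the filter on low values.

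**Figure D1:**
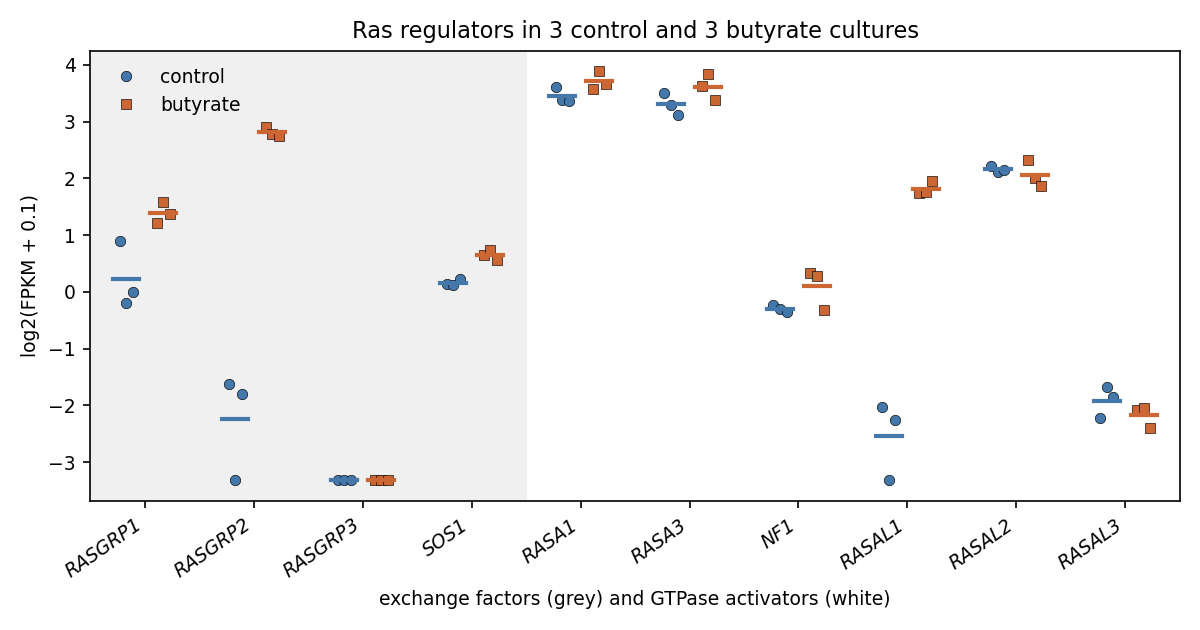
Each point is log2(FPKM + 0.1) of 1 culture, for the exchange factors on the grey ground and the RasGAPs on white, with circles for control and squares for butyrate; horizontal lines are group means (n = 3 each). RASGRP2 and RASAL1 show the widest gaps between groups, with butyrate cultures at 6.578 to 7.401 and 3.254 to 3.747 FPKM against control cultures at 0 to 0.2256 and 0 to 0.1463 FPKM.

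SOS1, the exchange factor that couples receptor tyrosine kinases to Ras, was low in both groups and varied little within them. Its FPKM was 1.003, 0.9835 and 1.066 in control and 1.471, 1.564 and 1.373 after butyrate. The values of the groups did not overlap, although their deposited intervals did (up to 1.248 FPKM in control, down to 1.15 FPKM after butyrate). The means of 1.02 ± 0.043 and 1.47 ± 0.096 differed 1.44-fold, a fitted log2 difference of 0.49 with a standard error of 0.20. That difference was 0.29 with a pseudocount of 1 and 0.60 after rescaling to TPM, where each culture has the same FPKM sum. Its closest relative SOS2, which is outside the set, stayed at 1.83 ± 0.134 and 1.79 ± 0.164 FPKM (log2 fold change -0.03, adjusted p = 0.895 by limma with Benjamini-Hochberg adjustment).

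Among the RasGAPs, RASAL1 had the same shape as RASGRP2. It was listed at 0.1463, 0 and 0.109 FPKM in control and at 3.254, 3.274 and 3.747 FPKM after butyrate. The butyrate cultures lay close together and well above every control culture. The means were 0.0851 ± 0.0760 and 3.43 ± 0.279, so the gene passed the filter on low values only through the butyrate cultures and had to differ. The fitted log2 difference was 4.35 with a standard error of 0.37, or 5.91 and 2.03 with pseudocounts of 0.01 and 1. The ratio of the means was 40.2, with an approximate interval of 12.8 to 185 from 3 implied fragments in control and 214 after butyrate. That interval has the same limits as the one of RASGRP2. In control replicate 1, 0.1463 FPKM went with 1.74 implied fragments, and in butyrate replicate 1, 3.254 FPKM went with 65.0.

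The most abundant RasGAPs, RASA1 and RASA3, were slightly higher on average after butyrate, with overlapping groups. RASA1 measured 12.09, 10.34 and 10.23 FPKM in control and 11.8, 14.69 and 12.57 FPKM after butyrate. Its butyrate replicate 1 was below control replicate 1, and the means of 10.9 ± 1.04 and 13.0 ± 1.497 differed 1.20-fold. RASA3 measured 11.23, 9.738 and 8.585 FPKM in control and 12.21, 14.12 and 10.31 FPKM after butyrate, with means of 9.85 ± 1.33 and 12.2 ± 1.91 that differed 1.24-fold. NF1, the largest of the classical RasGAPs, was below 1 FPKM on average in both groups: 0.7552, 0.7072 and 0.6786 in control and 1.155, 1.114 and 0.7035 after butyrate. Its butyrate replicate 3 fell among the control cultures and the other butyrate cultures above them, so the 1.39-fold difference of the means, 0.714 ± 0.039 and 0.991 ± 0.250, rested on 2 of 3 cultures. The NF1 intervals were as wide as 14.0 to 22.8 fragments per culture would give, against 121 to 171 for SOS1. Its level is thus less well known than that of SOS1, and the cause was not tested.

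RASAL2 and RASAL3 had means that were not higher after butyrate. RASAL2 measured 4.539, 4.241 and 4.32 FPKM in control and 4.871, 3.936 and 3.562 FPKM after butyrate. The butyrate cultures lay on both sides of the control cultures, with means of 4.37 ± 0.155 and 4.12 ± 0.674. The fitted log2 difference of -0.09 (standard error 0.15) had the opposite sign when each culture was rescaled to TPM (0.03) or when butyrate replicate 3 was left out (0.005). RASAL3, a RasGAP of blood cells, was barely detected, at 0.1138, 0.2117 and 0.1779 FPKM in control and 0.1347, 0.1407 and 0.0906 FPKM after butyrate. Its intervals reached 0 in all 6 cultures and the groups overlapped, so no difference was detectable at this depth.

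Of the 10 genes, 9 passed the filter. The DEG thresholds of the study, a log2 fold change beyond 2 with a Bonferroni-adjusted p under 0.05, were passed upward by RASGRP2 and RASAL1, 2 genes, against 2.46% of all tested genes. At a Benjamini-Hochberg adjusted p under 0.05, RASGRP1 joined them, 3 genes, against 32.5% of all tested genes. All butyrate values were above all control values for 4 genes (RASGRP1, RASGRP2, RASAL1 and SOS1), against 36.1% of all tested genes. No member was called lower, where the background was 1.51% by the DEG thresholds and 25.9% by the adjusted p. The members were chosen on this contrast, so nothing is read from these counts. The DEG calls of RASGRP2 and RASAL1 were lost with a pseudocount of 0.01, with no filter on low values, without the mean-variance trend, with the replicate number as a block, and when any culture other than control replicate 2 was left out.

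**Figure D2:**
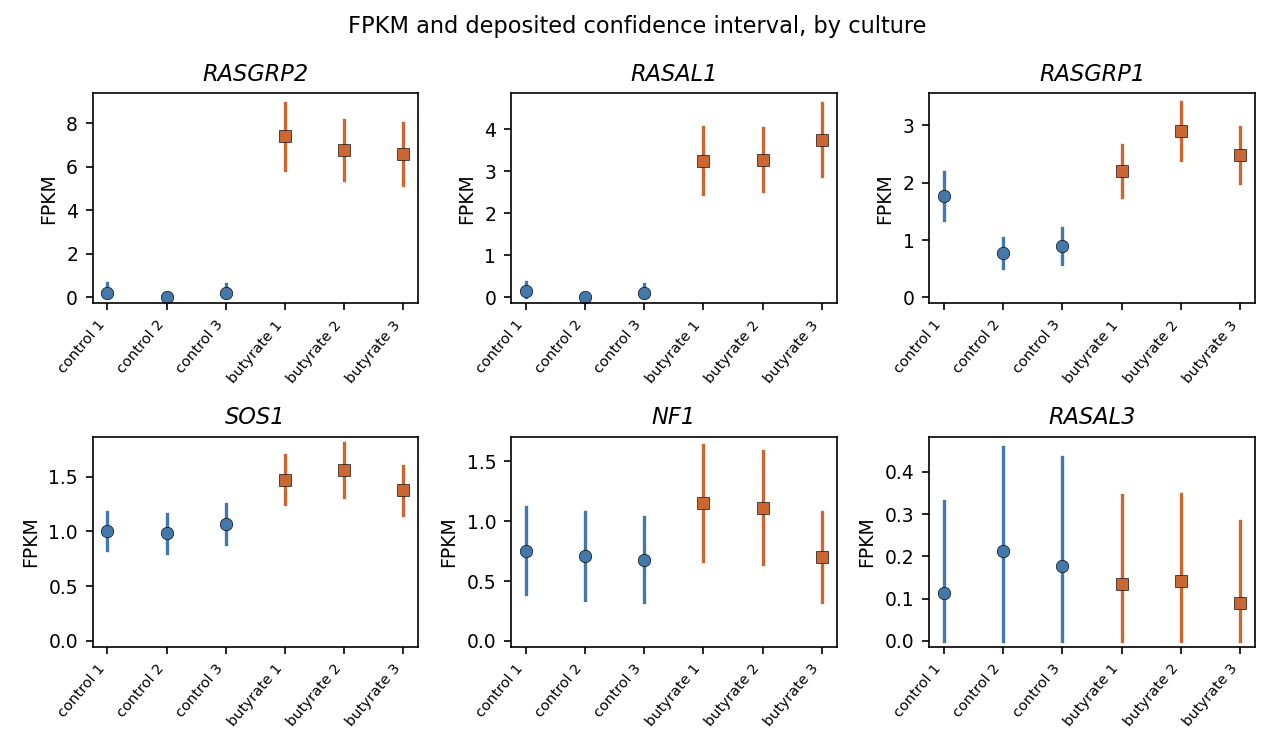
FPKM of the 4 low members and of RASGRP2 and RASAL1 in each culture (circles, control; squares, butyrate), with the deposited confidence interval as a vertical line and a separate vertical axis for each gene. The RASGRP2 intervals span 5.155 to 8.928 FPKM after butyrate and reach at most 0.662 FPKM in control. The intervals of RASGRP1, SOS1, NF1 and RASAL3 overlap between groups.

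The order of the levels also differed between groups. In control cultures RASA1 and RASA3 came first and their ranges overlapped, followed by RASAL2, by RASGRP1 and SOS1 with overlapping ranges, and by NF1. RASAL3, RASGRP2, RASAL1 and RASGRP3 made up the bottom of the order, each overlapping the next. After butyrate RASA1 and RASA3 again came first with overlapping ranges, but RASGRP2 was next, above RASAL2 and RASAL1, whose ranges overlapped. RASGRP1, SOS1, NF1, RASAL3 and RASGRP3 followed, each apart from the next. RASGRP2 thus stood at the 8th place of 10 by mean FPKM in control and at the 3rd after butyrate.

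Summed over genes, transcripts of the RASGRP family gained on those of the RasGAPs. The members were chosen with this contrast in view, so the sums are a description, and Ras activity was not tested. The RASGRP sum was 1.99, 0.773 and 1.085 FPKM in control and 9.607, 9.678 and 9.059 FPKM after butyrate, 7.37-fold higher by the means. The RasGAP sum was 28.87, 25.24 and 24.1 FPKM in control and 33.43, 37.28 and 30.99 FPKM after butyrate, 1.3-fold higher by the means. Both sums were higher in every butyrate culture than in any control culture, yet the RasGAP transcripts stayed the more abundant by far in all 6 cultures. For the RasGAPs that gap, from 28.87 to 30.99 FPKM, depends on RASAL1, which had to differ and supplied 3.747 FPKM in butyrate replicate 3. The ratio of the RASGRP sum to the RasGAP sum does not depend on how a culture is scaled. It was 0.0689, 0.0306 and 0.0450 in control and 0.287, 0.260 and 0.292 after butyrate, with means of 0.0482 ± 0.0194 and 0.280 ± 0.0176.

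The make-up of both sums changed. RASGRP1 supplied most of the RASGRP sum in control, where RASGRP2 made up 11.3%, 0% and 17.2% of it, and RASGRP2 made up 77.0%, 70.0% and 72.6% after butyrate. Among the RasGAPs, RASA1 and RASA3 together made up 78.1% to 80.8% of the sum in control and 71.8% to 77.3% after butyrate. RASAL1 went from 0.507%, 0% and 0.452% of the RasGAP sum to 9.73%, 8.78% and 12.1%. The RASGRP sum is thus mainly a measure of RASGRP2 after butyrate, whereas the RasGAP sum is mainly a measure of RASA1 and RASA3 in both groups. The separation of the RasGAP sum between groups, though, depends on RASAL1.

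**Figure D3:**
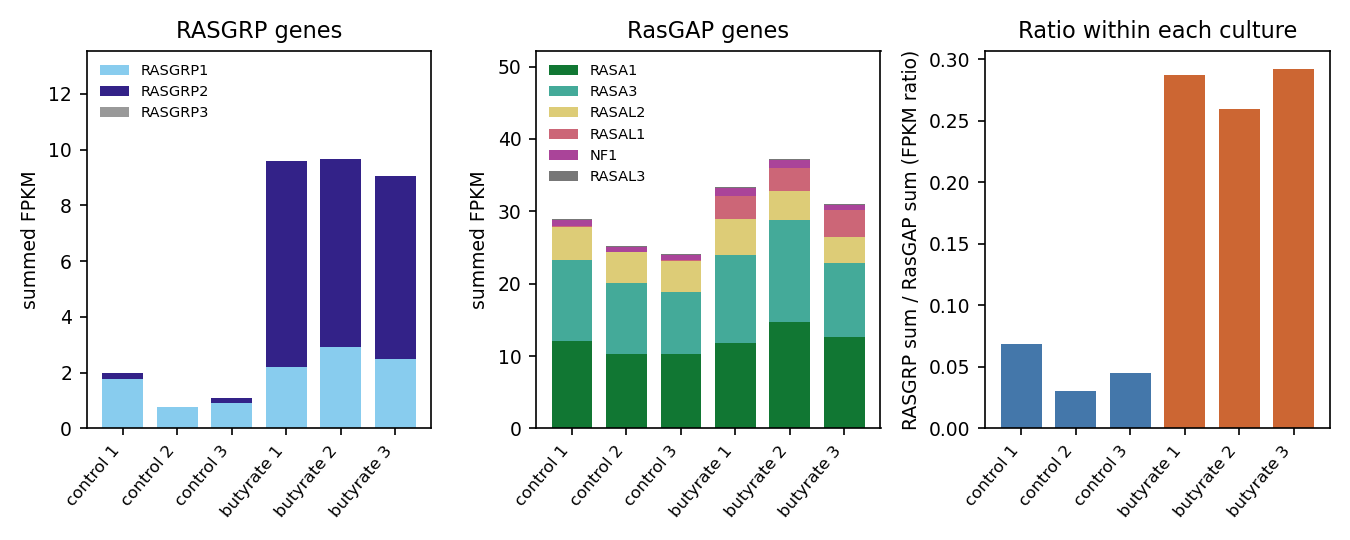
Stacked bars show the FPKM of the RASGRP genes (left) and of the RasGAP genes (middle) in each culture, and the bars on the right show the RASGRP sum divided by the RasGAP sum. The ratio is at most 0.0689 in the control cultures and at least 0.260 in the butyrate cultures.

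The members lie on 8 chromosomes, in the coordinates of the files (build UMD3.1 per the submitters' processing notes). RASGRP2 is listed at chr29:43589806-43604503 and RASAL1 at chr17:63397105-63429867. RASGRP1 lies at chr10:34200335-34280992, RASGRP3 and SOS1 lie on the same chromosome at chr11:16017935-16135641 and chr11:21329553-21460807, and RASA3 lies at chr12:90916421-90995751. RASAL2 is at chr16:60915354-61319731, NF1 at chr19:19116472-19240417, and RASAL3 and RASA1 are both on chromosome 7, at chr7:8710286-8722997 and chr7:89281002-89395503. The end of the RASA1 entry overlaps that of CCNH, a cyclin gene at 25.5 and 22.9 FPKM, and strand was not stated, so reads in the shared stretch cannot be assigned with certainty.

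The neighbours of the most changed members, which were looked up after the values were seen, moved unequally. PYGM, the muscle glycogen phosphorylase gene 1514 bp past RASGRP2, rose from 0.142 to 1.22 FPKM (log2 fold change 2.57 with a standard error of 0.40, adjusted p = 0.000611 by limma). NRXN2, a neurexin gene 3553 bp before RASGRP2, measured 0.0529 and 0.168 FPKM (log2 fold change 0.75, adjusted p = 0.201 by limma). Beside RASAL1, CFAP73 fell from 1.97 to 1.02 FPKM (log2 fold change -0.93, adjusted p = 0.0149 by limma), and the Notch regulator gene DTX1, 941 bp from RASAL1, was below the filter at 0 FPKM in control and 0.179 FPKM after butyrate.

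Over the 6 cultures, the tested genes nearest to RASGRP2 by the root mean squared difference of log2(FPKM + 0.1) were PRRT3 (0.436), CLEC3B (0.502) and PIANP (0.526). CLEC3B, which encodes tetranectin, had 0.282, 0 and 0.293 FPKM in control and 4.57, 9.45 and 11.1 FPKM after butyrate, a wider spread after butyrate than that of RASGRP2. The genes nearest to RASAL1 were BSPRY (0.181), PIANP (0.288) and CXCL8 (0.318), the last being the gene of the chemokine interleukin 8, at 0.0497 to 0.143 FPKM in control and 2.98 to 4.35 FPKM after butyrate. All of these genes were near 0 in control and above 2.9 FPKM after butyrate, and likeness over 6 cultures in 2 groups mostly measures that step.

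Other genes around Ras, 149 in all, were grouped by role, and 129 of them were tested. The list was drawn up with earlier results of these data known, so nothing is read from its shares beside those of all genes. Of the 129, 55 rose (42.6%) and 23 fell (17.8%) at an adjusted p under 0.05, against 32.5% and 25.9% of all tested genes, and 51 did neither. Their median log2 fold change was 0.30, beside 0.10 over all genes. Among the 122 that reached the filter in both groups, 49 rose (40.2%) and 23 fell (18.9%), against 30.8% and 28.0% of such genes overall. By the DEG thresholds 0 rose and 1, IQGAP3, fell, although 8 rose past an adjusted p of 0.05 with a log2 fold change beyond 2 and 9 did so at an unadjusted p under 0.05. Of the rest of the 149, KNDC1 and RASA4 were not analysed here and 18 were below the filter, among them RASGRP4 and RASGRF2, with group means of at most 0.166 FPKM.

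**Figure D4:**
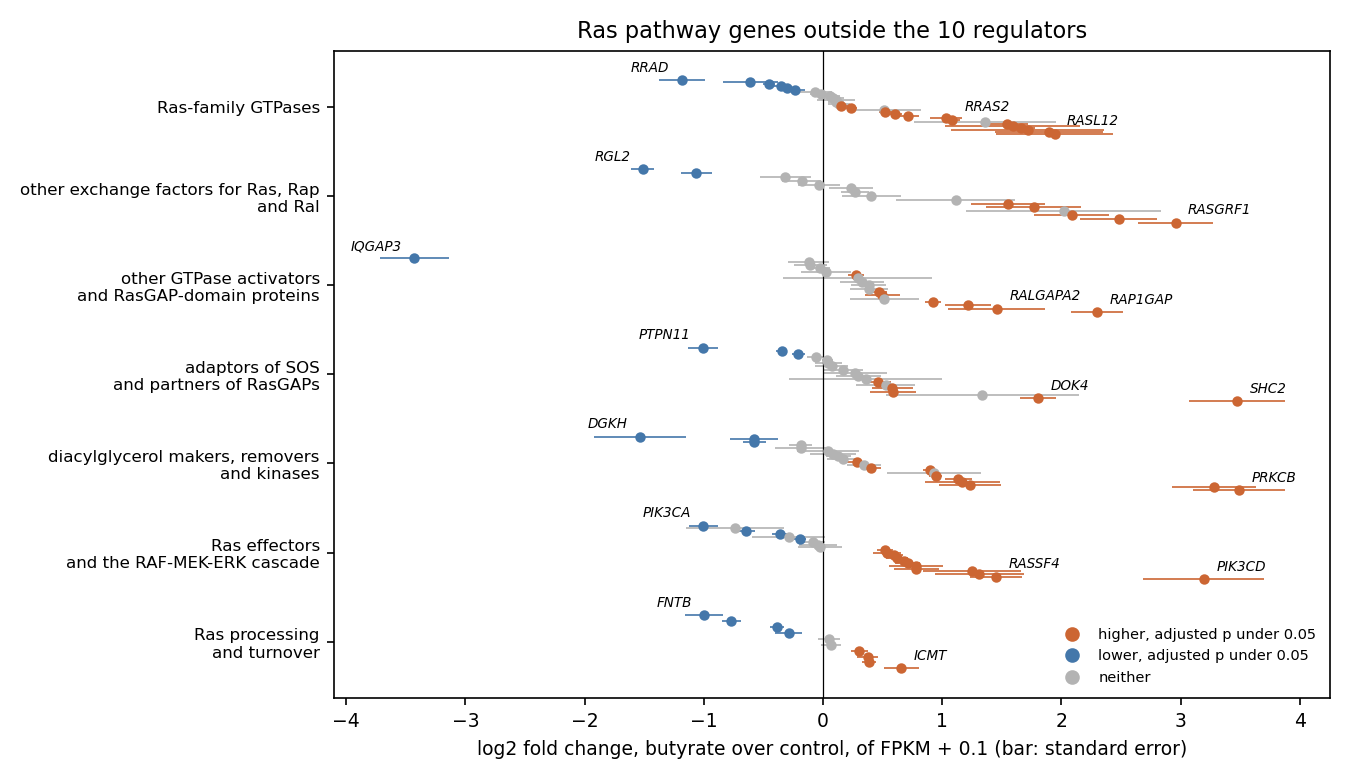
Each point is the log2 fold change of 1 tested gene, butyrate over control, of FPKM + 0.1, with its standard error as a bar, in rows by role; orange marks a rise and blue a fall at an adjusted p under 0.05, and grey marks neither. The 129 genes include 55 in orange and 23 in blue, with IQGAP3 farthest left at -3.43.

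The Ras proteins themselves, which the members act on, went in both directions. Of 28 Ras-family GTPase genes, 13 rose (46.4%) and 6 fell (21.4%), against 32.5% and 25.9% of all tested genes. HRAS fell from 134.6 ± 12.7 to 109.1 ± 6.02 FPKM (log2 fold change -0.30, adjusted p = 0.0076), and NRAS fell from 29.5 ± 1.94 to 23.1 ± 1.53 (log2 fold change -0.35, adjusted p = 0.00463). The call for HRAS was lost after rescaling to TPM (adjusted p = 0.0601), which moved the median of all genes from 0.10 to 0.22. RRAS2 (TC21), named after its values were seen, rose 2.13-fold from 105.4 ± 2.24 to 224.5 ± 22.3 FPKM and was then more abundant than HRAS. The largest rises were those of RASL12 (1.94) and DIRAS3 (1.90), a Ras relative known as a growth inhibitor, and the largest falls those of RRAD (-1.18) and RASL10B (-0.61), all as log2 fold changes; the call for RASL10B was lost in 11 of the alternative settings.

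Of 15 other exchange factors for Ras, Rap and Ral tested, 5 rose (33.3%) and 2 fell (13.3%), against 32.5% and 25.9% of all tested genes. RASGRF1, a calcium- and calmodulin-responsive Ras exchange factor of neurons, rose from 0.0458 ± 0.00657 to 1.03 ± 0.0710 FPKM, and RAPGEFL1 rose from 0.202 to 1.53 FPKM (2.48). RASGRF1 passed the filter only through the butyrate cultures and, like RASAL1, had to differ. The Ral exchange factor genes RGL2 and RALGPS2 fell, from 28.9 ± 2.25 to 10.1 ± 0.975 FPKM and from 26.7 ± 2.72 to 12.8 ± 2.11 FPKM. Their means were above that of every RASGRP gene in both groups, at 10.06 FPKM for RGL2 beside 6.92 FPKM for RASGRP2 after butyrate.

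Of 17 other GTPase activators and RasGAP-domain proteins, 7 rose (41.2%) and 1 fell (5.88%), against 32.5% and 25.9% of all tested genes. RAP1GAP, which turns off Rap1, the GTPase that RASGRP2 turns on, rose from 1.19 ± 0.221 to 6.27 ± 1.54 FPKM (log2 fold change 2.30, adjusted p = 3.03e-05). RALGAPA2, a subunit of the Ral GTPase activator, rose by 1.46 on the log2 scale. IQGAP3, a scaffold that carries a RasGAP-like domain and is known from dividing cells, fell from 2.62 ± 0.511 to 0.153 ± 0.0556 FPKM (log2 fold change -3.43, adjusted p = 1.46e-05). The RasGAP gene RASA2 measured 3.68 ± 0.232 and 3.41 ± 0.267 FPKM (adjusted p = 0.534), and DAB2IP measured 0.778 ± 0.248 and 1.14 ± 0.275 FPKM (adjusted p = 0.162).

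Diacylglycerol, the lipid that RASGRP1 and RASGRP3 bind, is made by phospholipase C enzymes and removed by diacylglycerol kinases, and it also activates protein kinase C. Of 20 genes of these families, 9 rose (45.0%) and 3 fell (15.0%), against 32.5% and 25.9% of all tested genes. The protein kinase C gene PRKCB rose from 0.04996 to 1.56 FPKM, having passed the filter only through the butyrate cultures, and the falls with the largest fold were those of DGKH (-1.54) and PLCB4 (-0.58). The phospholipase gene PLCG1 and the kinase gene DGKA, both named after their values were seen, rose together: PLCG1 from 6.51 ± 0.378 to 14.5 ± 1.74 FPKM and DGKA from 20.9 ± 0.270 to 39.0 ± 1.36 FPKM. A maker and a remover of the same lipid were thus both higher.

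Among adaptors of SOS and partners of RasGAPs, 5 of 18 genes rose (27.8%) and 3 fell (16.7%), against 32.5% and 25.9% of all tested genes. GRB2, which carries SOS1 to receptors, measured 98.2 ± 0.959 and 100.6 ± 3.06 FPKM (log2 fold change 0.04, adjusted p = 0.52), far above SOS1 itself. PTPN11, the phosphatase SHP2, fell from 20.3 ± 1.95 to 10.1 ± 1.59 FPKM (log2 fold change -1.01, adjusted p = 0.000155), and G3BP1, named for its binding to the RasGAP RASA1, fell by 0.35 on the log2 scale. DOK4 rose by 1.80, and SHC2 rose from a listed 0 in all control cultures to 1.07 ± 0.455 FPKM, so it too passed the filter only through the butyrate cultures. SPRED1 and SPRED2, partners of neurofibromin, measured 2.96 and 3.33 FPKM and 6.28 and 6.61 FPKM in control and butyrate cultures (adjusted p = 0.391 and 0.67).

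Downstream of Ras, 12 of 21 effector genes rose (57.1%) and 4 fell (19.0%), against 32.5% and 25.9% of all tested genes. PIK3CD, the phosphoinositide 3-kinase subunit of white blood cells, rose from 0.297 ± 0.267 to 2.94 ± 0.428 FPKM (log2 fold change 3.19, adjusted p = 0.000679), whereas PIK3CA fell from 7.56 ± 0.573 to 3.72 ± 0.305 FPKM (log2 fold change -1.003, adjusted p = 0.000142). Of the RAF kinases, ARAF fell by 0.65 on the log2 scale (adjusted p = 0.00016), and BRAF measured 1.88 ± 0.099 and 1.86 ± 0.250 FPKM (adjusted p = 0.925). RASSF4, a member of the RASSF family of Ras-binding proteins, rose by 1.45 on the log2 scale. Of 10 genes that attach, trim or move Ras, 4 rose (40.0%) and 4 fell (40.0%), against 32.5% and 25.9% of all tested genes. The rises included ICMT (0.66) and GOLGA7 (0.39), and the falls FNTB (-0.997), the catalytic subunit of farnesyltransferase, and LYPLA1 (-0.77).

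RASGRP2 and several of the genes above are known best from blood cells or neurons, so markers of these cells were read in the same cultures. The 14 leukocyte markers summed to 5.526 to 7.254 FPKM in control and 12.34 to 14.91 FPKM after butyrate. Most of the control sum was CD14, at 4.447 to 6.655 FPKM in control and 5.965 to 8.164 FPKM after butyrate (adjusted p = 0.2 by limma). Of the 4 leukocyte markers that were tested 2 rose at an adjusted p under 0.05, CD3D and CORO1A, against 32.5% of all tested genes. The pan-leukocyte marker PTPRC and CD79B, MS4A1, LCP2 and IKZF1 were listed at 0 in all 6 cultures. The 5 platelet markers summed to 0.0466 to 0.5295 FPKM in control and 1.854 to 2.192 FPKM after butyrate, with PPBP and GP1BA listed at 0 throughout. Of the 3 platelet markers that were tested 2 rose, GP9 and PF4. CD3D and PF4 passed the filter on low values only through the butyrate cultures. The 5 endothelial markers summed to 1.969 to 2.157 and 6.483 to 8.427 FPKM. Of these, 2 were tested and both rose, VWF from 0.456 to 3.305 FPKM and PECAM1 from 1.543 to 3.951 FPKM. CDH5 was listed at 0, and KDR and TEK were below the filter. The 5 neuronal markers summed to 0.997 to 2.074 and 3.557 to 6.056 FPKM. Most of the neuronal sum was SNAP25, at 0.9923 to 2.074 FPKM in control and 2.461 to 4.58 FPKM after butyrate. RBFOX3 was higher too, having passed the filter only through the butyrate cultures, and SYP, STMN2 and NEFL were below the filter. Few markers of each of these lists were tested, so nothing is read from these counts beside the share of all genes. The sums of these lists were higher after butyrate, as were those of the epithelial and fibroblast lists. RASGRP1, RASGRP2 and RASAL1 were also higher, and the part of blood, endothelial or neuronal cells in their values was not tested.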

How the data were processed

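RNA of 6 REPC cultures (3 control, 3 butyrate) was measured by the authors with a TruSeq kit and paired-end sequencing. The authors trimmed reads with Trim Galore 0.4.1, aligned them with STAR, kept uniquely mapped reads and deposited Cufflinks FPKM values with a confidence interval per gene, on UMD3.1 per the processing notes. Whether reads were counted by strand is not given in the sources used here. Fragment numbers and depth ratios were inferred from the width of the intervals and are approximate, with depth set from genes whose interval shows 1 fragment.

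FPKM is not a count, so limma 3.58.1 (R 4.3.3) with a mean-variance trend was fitted to log2(FPKM + 0.1) without covariates, for genes whose mean FPKM reached 0.1. Leaving out 2 genes with a failed estimate, 15813 genes were tested. The method was run on simulated data with normal noise and no floor, so that run does not cover genes near the floor, such as RASGRP2 and RASAL1 in control. Adjusted p-values are over all tested genes. Genes were matched by name, and a gene with several entries was read from the most abundant. Chromosome numbers were taken from the RefSeq gene table (ARS-UCD2.0) by majority of gene names, with coordinates from the files.

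The members and lists were chosen with earlier results of these data known. Named were all members, 17 core Ras genes, the 2 largest rises and falls past the adjusted p in each role, and the 3 genes nearest to RASGRP2 and RASAL1, of which some are not reported here. RRAS2, PLCG1, DGKA and the neighbouring genes were added after their values were seen. Alternatives were other pseudocounts, filters and scalings, no trend, a replicate block, leaving out each culture, the ratio of means, and the RasGAP sum without RASA1. Promoter and protein sequences were not analysed here.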

Additional observations from a re-analysis of the deposited data

How the results depend on the processing

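Of 389 higher and 238 lower DEGs, 47 and 50 were left with no filter on low values and 213 and 141 without the trend, the replicate block left 226 higher, and leaving out 1 culture gave 100 to 232 higher and 122 to 159 lower. Among the Ras pathway genes outside the members, the 1 lower DEG (IQGAP3) was not called (0) with a pseudocount of 0.01 or 1, no filter, no trend or the block, or when any culture was left out (0 to 0). The 0 higher DEGs became 1 (RAP1GAP) with a mean FPKM of at least 1 or after rescaling to TPM, and 2 without the trend. The pathway counts at an adjusted p under 0.05 ran from 41 to 62 higher and from 16 to 23 lower over the alternatives. Of the named pathway genes, RASL10B lost its call in 11 settings and PLCB4 in 8, both with the block among them, HRAS, DIRAS3, RASL12, RALGAPA2, DGKH and ICMT lost it with no filter, HRAS also with TPM, and GRB2 gained one with TPM. Without RASA1, the mean ratio of the RASGRP to the RasGAP sum was 0.0829 in control and 0.455 after butyrate. The RASAL2 difference reversed, to 0.028 with TPM and 0.005 without butyrate replicate 3 (-0.216 to 0.005 with 1 culture left out). In all other settings its sign was kept. The cause was not tested for any of these.

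Replicate numbers did not pair the cultures: deviations from the group means correlated at -0.00431 to 0.0228 for 3 same-numbered pairs and at -0.0181 to 0.0163 for 6 differently numbered ones. With the replicate block 54 pathway genes were higher and 21 lower. Depth limits the genes near 0 in control, whose fold changes follow the pseudocount.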
